A study of Homo sapiens with 6 samples.

Results

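The 8 genes described here encode proteins that sit on the surface of prostate cancer cells, or in the case of prostatic acid phosphatase also leave the cell, and that serve as antigens for imaging, antibodies or vaccines. They are FOLH1, STEAP1, STEAP2, STEAP4, PSCA, CD276, ACPP and TRPM8, chosen by symbol, and all 8 were found among the 19571 genes of the deposited expression table. The table holds 6 RNA-seq libraries of LNCaP, an androgen-responsive line derived from a lymph node metastasis of prostate cancer. In 3 libraries (replicates 1, 2 and 4, called the KDM4B-labelled libraries) the cells carried stably expressed Flag-tagged wild-type KDM4B, a histone H3 lysine demethylase, and in the other 3 (replicates 1, 2 and 3, called the vector controls) they carried the plenti6 control plasmid. Before harvest, cells of both groups were kept for 3 days in RPMI medium with 10% CFBS. The series was made to find splicing differences between these groups, and the surface antigens give a gene-level and an exon-level view of the same contrast. No label says whether the replicates came from separate cultures or clones, and the p-values measure only the spread between these libraries.

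The antigens belong to several protein families. FOLH1, known as prostate-specific membrane antigen, is a surface glutamate carboxypeptidase whose transcript is known to be held down by androgen. The STEAP proteins span the membrane several times, and STEAP2 and STEAP4 are metalloreductases, which pass electrons to iron and copper. CD276 (B7-H3) is an immune checkpoint ligand, PSCA is a small Ly6-type protein held by a lipid anchor, and ACPP (ACP3 in RefSeq) is the phosphatase long measured in blood as a prostate marker. TRPM8 is the cation channel opened by cold and menthol, and its transcript, like that of STEAP4, is known to be induced by androgen.

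The promoters of STEAP1, STEAP4 and ACPP are shown because only these antigen genes had exactly 1 RefSeq promoter entry. FOLH1 and PSCA had 0 entries, and STEAP2, CD276 and TRPM8 had more than 1. STEAP4 and ACPP had the largest fold changes of the 8 genes in each direction. Each line gives the 250 bases before the start of the gene, read 5′ to 3′ on the strand of the gene, from RefSeq on GRCh38.p14, with capitals marking a GC box. The stretch for STEAP1 is chr7:90154219-90154468 on the plus strand, that for STEAP4 is chr7:88306895-88307144 on the minus strand, and that for ACPP is chr3:132317157-132317406 on the plus strand.
STEAP1: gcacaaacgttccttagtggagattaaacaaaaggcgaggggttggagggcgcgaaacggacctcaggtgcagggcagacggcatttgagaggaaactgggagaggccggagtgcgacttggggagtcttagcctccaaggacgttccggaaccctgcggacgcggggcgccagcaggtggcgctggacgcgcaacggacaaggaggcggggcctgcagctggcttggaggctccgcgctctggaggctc
STEAP4: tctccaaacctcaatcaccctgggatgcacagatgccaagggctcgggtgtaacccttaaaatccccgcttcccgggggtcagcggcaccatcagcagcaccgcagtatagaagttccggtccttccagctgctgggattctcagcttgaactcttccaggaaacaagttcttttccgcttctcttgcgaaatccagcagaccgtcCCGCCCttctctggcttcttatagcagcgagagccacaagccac
ACPP: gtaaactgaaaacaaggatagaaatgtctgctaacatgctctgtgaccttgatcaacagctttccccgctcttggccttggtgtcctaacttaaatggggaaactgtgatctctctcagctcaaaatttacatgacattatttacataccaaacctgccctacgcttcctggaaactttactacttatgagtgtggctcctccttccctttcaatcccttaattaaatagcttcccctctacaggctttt

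Of 3 short motifs searched on both strands, only the GC box was found in these stretches, once, in STEAP4, starting 44 bases before the gene start. The letters searched were TATAAA for a TATA box, CCAAT for a CCAAT box and GGGCGG for a GC box, and none of the motifs overlaps another. Among 35116 RefSeq promoter stretches of this length, 10.7% held the TATA box, 32.0% the CCAAT box and 42.6% the GC box. The ACPP stretch had a GC content of 42.0%, with 16.4% of all stretches below it and a median of 58.0%. The STEAP1 stretch had 64.4% and the STEAP4 stretch 55.6%. A match is a description of the letters, and the absence of a match says nothing on whether a factor acts there.

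The expression values are FPKM, fragment counts set against transcript length and library size, as the authors deposited them. They were compared with limma on log2(FPKM + 1) over the 12148 genes with a mean of at least 1 FPKM, a scale that understates the change of low genes, and a gene was called at a Benjamini-Hochberg adjusted p below 0.05. The KDM4B-labelled libraries stood apart in 3 ways. Their size factors by median of ratios were 0.910 to 0.948, against 1.08 to 1.09 in the vector controls, and the median gene had a log2 fold change of -0.22 as deposited and -0.01 after scaling by these factors. Ribosomal RNA genes took 9.61% ± 1.29 (SD, n = 3) of the FPKM sum in the KDM4B-labelled libraries and 0.255% ± 0.189 (SD, n = 3) in the vector controls. The KDM4B transcript itself was at 26.4 ± 0.709 FPKM (SD, n = 3) in the KDM4B-labelled libraries and 25.1 ± 0.287 FPKM (SD, n = 3) in the vector controls, and it was not called (limma adjusted p = 0.113). After scaling it was at 28.5 ± 0.511 and 23.1 ± 0.169 FPKM, a ratio of 1.24, and was called higher (limma adjusted p = 2.86e-05). The part of these differences in the antigen results was not tested, and each antigen is therefore given both as deposited and after scaling. A common ending marks the titles of the KDM4B-labelled libraries and is missing from those of the vector controls, so a batch, if there was one, and the group cannot be told apart.

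As deposited, 3 of the 8 antigen genes were higher in the KDM4B-labelled libraries (FOLH1, CD276 and ACPP), 4 were lower (STEAP1, STEAP2, STEAP4 and TRPM8) and PSCA was not called. STEAP4 passed the filter on low values only through its vector controls, so its call is given as a description, and 3 of the other 7 were lower. Over all tested genes 13.4% were called higher and 60.3% lower. After scaling, the same 3 genes were higher and 3 were lower, STEAP4 among them, with STEAP2 and PSCA not called, against 32.4% of all genes higher and 35.5% lower. The 6 libraries of 7 of the antigens separated by group as deposited, 3 with the KDM4B-labelled libraries above and 4 below, STEAP4 among these 4, where 14.6% of all tested genes separated with these libraries above and 61.7% with them below. The median log2 fold change of the 8 antigens was -0.17 as deposited and 0.03 after scaling. The antigens moved in both directions. In bulk RNA, fewer cells that express a gene and less RNA of it per cell cannot be told apart.

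**Figure D1:**
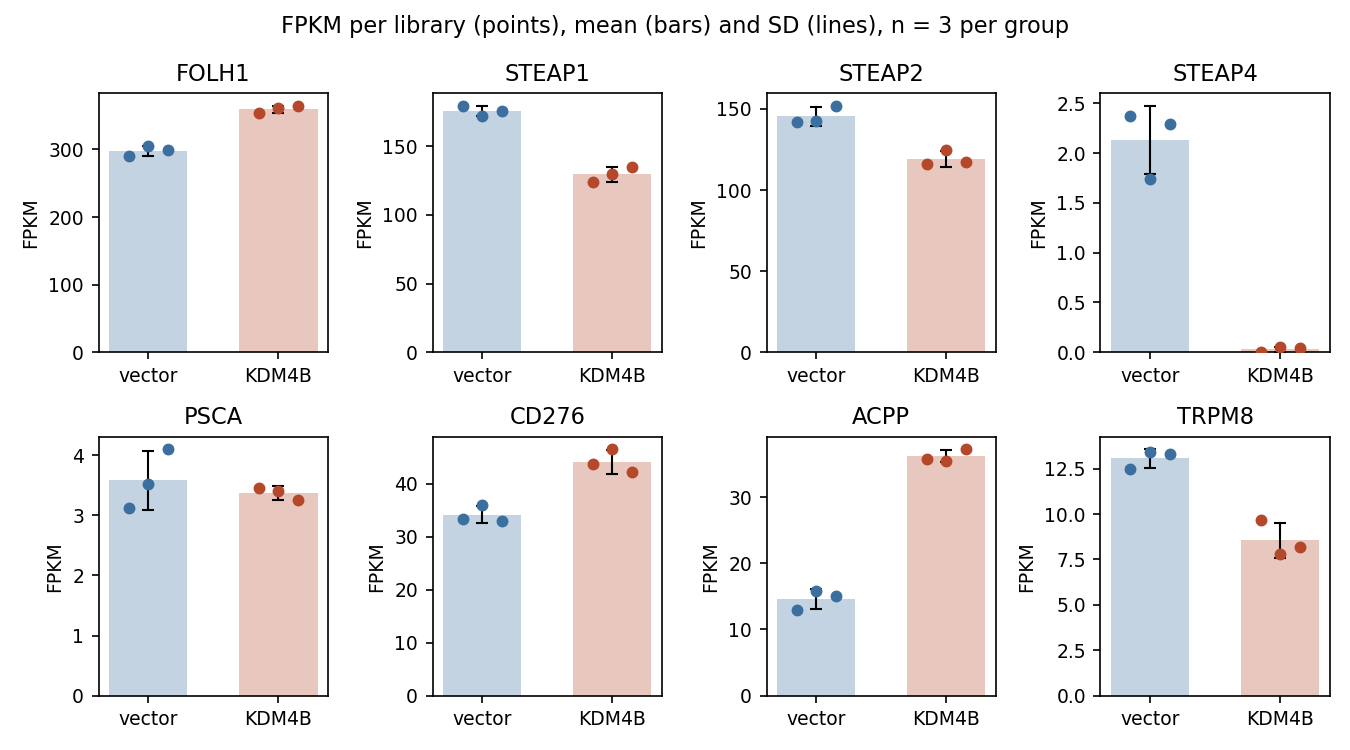
FPKM of each antigen gene by library (vector left, labelled KDM4B right; points are libraries, bars the mean with its SD, n = 3), one panel per gene with its own axis from 0. The groups overlap only for PSCA, whose vector controls run from 3.13 to 4.10 FPKM.

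FOLH1, on chromosome 11 (gene ID 2346), was the most abundant of the antigens. Its KDM4B-labelled libraries had 353.82, 361.17 and 363.65 FPKM, and its vector controls had 290.35, 304.63 and 299.26 FPKM. Every KDM4B-labelled library lay above every vector control. The means were 359.5 ± 5.11 and 298.1 ± 7.21 FPKM (SD, n = 3 each), a log2 fold change of 0.27 (SE 0.032, 95% interval 0.20 to 0.34, limma adjusted p = 1.47e-05). After scaling the difference was larger, with a log2 fold change of 0.50 (SE 0.028, 95% interval 0.44 to 0.56, limma adjusted p = 1.59e-07). FOLH1 lay above 92.4% of all tested genes in its log2 fold change as deposited. FOLH1B, a near-identical copy of FOLH1, averaged 1.64 FPKM in the KDM4B-labelled libraries and 0.963 FPKM in the vector controls, and reads shared by such copies can be assigned to either, so the value of FOLH1B is uncertain.

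As deposited, the STEAP antigen genes on chromosome 7 were lower in the KDM4B-labelled libraries by very different amounts. After scaling, STEAP2 was not called. STEAP1 (gene ID 26872) lacks the cytoplasmic oxidoreductase domain of STEAP2 and STEAP4. It had 124.31, 129.6 and 135.32 FPKM in the KDM4B-labelled libraries and 179.46, 171.84 and 176.03 FPKM in the vector controls. The groups did not overlap, with means of 129.7 ± 5.51 and 175.8 ± 3.82 FPKM (SD, n = 3 each). The log2 fold change was -0.44 (SE 0.039, 95% interval -0.52 to -0.35, limma adjusted p = 1.28e-06) as deposited and -0.21 (95% interval -0.29 to -0.13, limma adjusted p = 0.000538) after scaling. The RefSeq span of the long non-coding gene STEAP2-AS1 includes that of STEAP1, and no source used here says whether the counting used strand, so reads where their exons coincide cannot be told apart.

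STEAP2 (gene ID 261729), a metalloreductase found in the Golgi and at the cell surface, had 115.89, 124.88 and 117.23 FPKM in the KDM4B-labelled libraries and 141.88, 142.45 and 151.94 FPKM in the vector controls. As deposited the groups did not overlap, with means of 119.3 ± 4.85 and 145.4 ± 5.65 FPKM (SD, n = 3 each) and a log2 fold change of -0.28 (SE 0.042, 95% interval -0.37 to -0.19, limma adjusted p = 7.48e-05). After scaling the groups overlapped and the gene was not called, with a log2 fold change of -0.06 (95% interval -0.13 to 0.02, limma adjusted p = 0.172). Its deposited change was thus close to the shift of the median gene, -0.22. 

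STEAP4 (gene ID 79689), a metalloreductase also studied in fat tissue and inflammation, was nearly absent from the KDM4B-labelled libraries. They had 0, 0.05 and 0.04 FPKM, and the vector controls had 2.37, 1.74 and 2.29 FPKM. The groups lay far apart, with means of 0.03 ± 0.026 and 2.13 ± 0.343 FPKM (SD, n = 3 each). The log2 fold change was -1.60 (SE 0.097, 95% interval -1.81 to -1.39, limma adjusted p = 5.18e-08), with 0.79% of all tested genes below it, and -1.52 after scaling (limma adjusted p = 3.26e-07). With a pseudocount of 0.1 in place of 1 the log2 fold change was -4.11 (limma adjusted p = 1.82e-07). STEAP4 passed the filter on low values, with a mean of 1.08 FPKM over the 6 libraries, only through its vector controls, so it had to differ in order to be tested. The reads give a bound on the ratio: its single skipped-exon event held 0, 0 and 2 reads in the KDM4B-labelled libraries and 23, 9 and 15 in the vector controls. The 47 vector reads and the 2 others gave a ratio of vector to KDM4B of 20.2 (exact 95% interval 5.29 to 172, counting error only). For this ratio they were set against the normalized sum of the most-read skipped-exon events of the genes with at least 10 reads in every library.

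CD276, on chromosome 15 (gene ID 80381), was higher in the KDM4B-labelled libraries. These had 43.6, 46.46 and 42.16 FPKM, and the vector controls had 33.38, 35.97 and 32.97 FPKM. The groups did not overlap, with means of 44.1 ± 2.19 and 34.1 ± 1.63 FPKM (SD, n = 3 each). The log2 fold change was 0.36 (SE 0.048, 95% interval 0.25 to 0.47, limma adjusted p = 3.61e-05) and 0.58 after scaling (95% interval 0.49 to 0.68, limma adjusted p = 9.31e-07). It lay above 94.7% of all tested genes.

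PSCA, on chromosome 8 (gene ID 8000), was the antigen that was called under neither scaling. Its KDM4B-labelled libraries had 3.46, 3.41 and 3.25 FPKM, within the range of the vector controls, which had 3.13, 3.52 and 4.10 FPKM. The means were 3.37 ± 0.110 and 3.58 ± 0.488 FPKM (SD, n = 3 each). The log2 fold change was -0.06 (95% interval -0.23 to 0.11, limma adjusted p = 0.476) as deposited and 0.12 (95% interval -0.05 to 0.28, limma adjusted p = 0.198) after scaling. Changes within these intervals are not excluded, and the spread of the vector controls sets their width.

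ACPP, on chromosome 3 (gene ID 55), had the largest rise. Its KDM4B-labelled libraries had 35.84, 35.52 and 37.23 FPKM, and its vector controls had 12.99, 15.81 and 15.06 FPKM. All 3 KDM4B-labelled libraries lay well above the vector controls, with means of 36.2 ± 0.909 and 14.6 ± 1.46 FPKM (SD, n = 3 each), a ratio of 2.48 as deposited and 2.90 after scaling. The log2 fold change was 1.26 (SE 0.062, 95% interval 1.12 to 1.39, limma adjusted p = 1.03e-08) and 1.47 after scaling (SE 0.061, limma adjusted p = 1.88e-08). Of all tested genes, 99.2% had a lower log2 fold change than ACPP.

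TRPM8, on chromosome 2 (gene ID 79054), was lower in the KDM4B-labelled libraries. These had 9.65, 7.83 and 8.2 FPKM, and the vector controls had 12.49, 13.4 and 13.31 FPKM. The groups did not overlap, with means of 8.56 ± 0.962 and 13.1 ± 0.501 FPKM (SD, n = 3 each). The log2 fold change was -0.56 (SE 0.067, 95% interval -0.71 to -0.41, limma adjusted p = 1.42e-05) and -0.35 after scaling (SE 0.074, 95% interval -0.52 to -0.19, limma adjusted p = 0.00174). Of all tested genes, 15.2% had a lower log2 fold change.

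**Figure D2:**
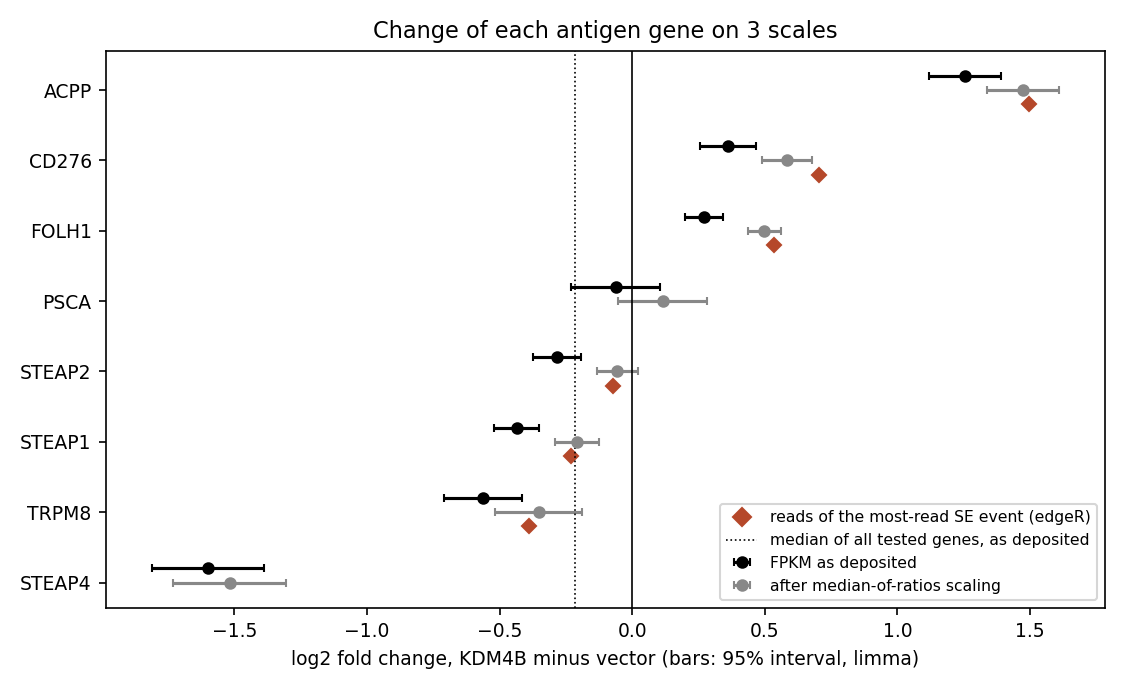
Log2 fold change (KDM4B-labelled libraries minus vector) of each antigen gene as deposited, after median-of-ratios scaling and in the reads of its most-read skipped-exon event (SE), with 95% intervals for the FPKM values and a dotted line at the median of all tested genes, -0.22. ACPP lies at 1.26 or above and STEAP4 at -1.52 or below in the FPKM values, while STEAP4 and PSCA have no event value.

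On the FPKM scale, which is per length, the levels fell in the same order in both groups: FOLH1, STEAP1, STEAP2, CD276, ACPP, TRPM8, PSCA and STEAP4. Of the neighbours in that order, STEAP1 and STEAP2 overlapped in the KDM4B-labelled libraries, and ACPP and TRPM8 overlapped in the vector controls. The other neighbours were separated in every library of their group. Among all 19571 genes ranked by mean FPKM, FOLH1 stood at place 182 in the vector controls and 141 in the KDM4B-labelled libraries. ACPP moved from place 5335 to 1974, CD276 from 2478 to 1599, TRPM8 from 5786 to 6698 and STEAP4 from 11056 to 16526. STEAP1 stood at 365 and then 430, STEAP2 at 478 and 474, and PSCA at 10050 and 9746.

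The deposited splicing tables give reads at exons, a second readout of the same libraries that does not depend on the FPKM scale. For each gene the most-read skipped-exon event was tested with edgeR's quasi-likelihood test and TMM normalization, over 8556 genes with at least 10 reads in every library, of which 22.8% were called higher and 22.9% lower. FOLH1, CD276 and ACPP were again higher, STEAP1 and TRPM8 lower, and STEAP2 not called. PSCA has no such event, and that of STEAP4, given above, held too few reads. The event of FOLH1 held 4642, 4863 and 4915 reads in the KDM4B-labelled libraries and 3838, 3871 and 3852 in the vector controls, a log2 fold change of 0.54 (SE 0.042, edgeR adjusted p = 1.92e-14). That of ACPP held 470, 501 and 437 reads against 141, 235 and 203, a log2 fold change of 1.50 (SE 0.114, edgeR adjusted p = 7.40e-15). That of CD276 held 675, 677 and 647 reads against 465, 513 and 449, a log2 fold change of 0.70 (SE 0.076, edgeR adjusted p = 1.77e-10). For these 3 genes no KDM4B-labelled library had as few reads as any vector control, although the vector controls held more reads in all.

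The event of STEAP1 held 4545, 4552 and 4896 reads in the KDM4B-labelled libraries and 6605, 6202 and 6311 in the vector controls, a log2 fold change of -0.23 (SE 0.042, edgeR adjusted p = 1.49e-05). The event of TRPM8 held 210, 164 and 185 reads against 291, 310 and 250, a log2 fold change of -0.39 (SE 0.117, edgeR adjusted p = 0.00618). Without KDM4B replicate 2, which had the fewest reads, TRPM8 was at -0.29 and was not called (edgeR adjusted p = 0.0628). The event of STEAP2 held 847, 836 and 1082 reads against 1160, 1063 and 1160, which came to 158.91, 151.37 and 204.7 CPM (reads set against the library total) against 182.4, 169.85 and 188.92 CPM. On that scale KDM4B replicate 4 lay above every vector control, and the other 2 lay below all of them. Its log2 fold change was -0.07 (SE 0.074, edgeR adjusted p = 0.448), and it was 0.01 without KDM4B replicate 2 (edgeR adjusted p = 0.918) and -0.22 without KDM4B replicate 4 (edgeR adjusted p = 0.0102). The event values lay nearer to the scaled than to the deposited FPKM values for the 6 genes that have them. TMM and median-of-ratios scaling both set the typical gene near no change, so this likeness is not separate support for the scaled values.

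In all, 35 events of the splicing tables lie in 7 of the antigen genes: 14 in FOLH1, 8 in STEAP2, 5 in ACPP, 4 in CD276, 2 in STEAP1 and 1 each in STEAP4 and TRPM8. They comprise 27 skipped exons, 4 pairs of mutually exclusive exons, 3 retained introns and 1 alternative 5′ splice site. The tables give 1 read number per event and library rather than reads of each splice form, and the forms could be worked out for no event of an antigen gene. Events of a gene share reads and are not independent. The log2 ratio of library-scaled reads ran from 0.42 to 0.60 over the events of FOLH1, from 1.41 to 1.71 in ACPP and from 0.41 to 0.70 in CD276. It ran from -0.23 to -0.14 in STEAP1 and from -0.15 to 0.25 in STEAP2, the one gene whose events pointed both ways.

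**Figure D3:**
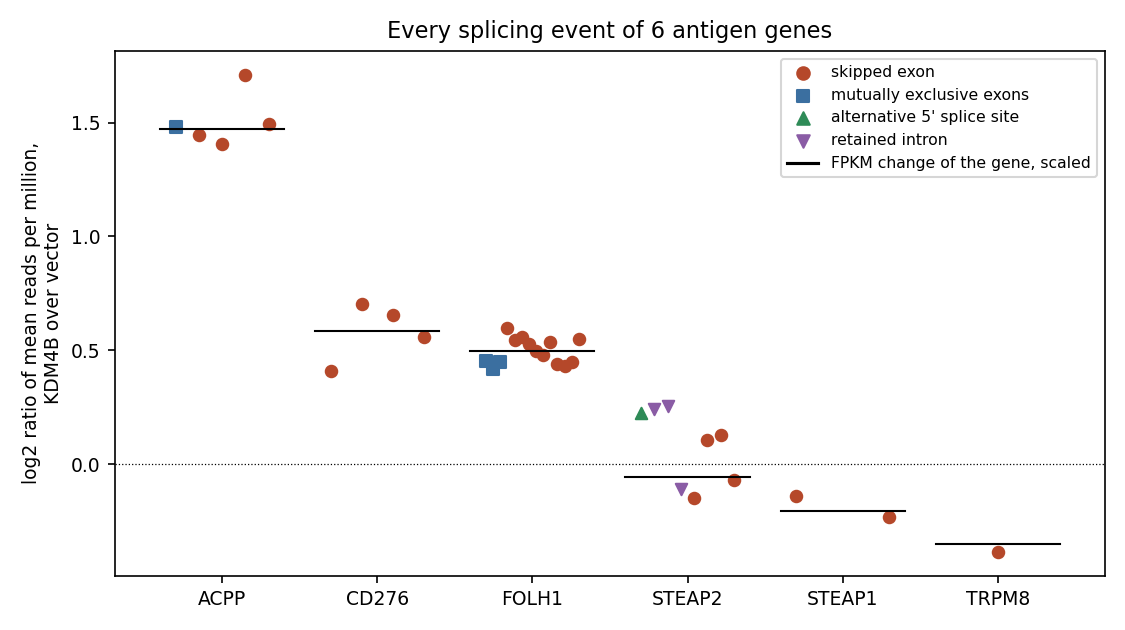
Log2 ratio of scaled reads (KDM4B-labelled libraries over vector) for each splicing event of 6 antigen genes, by gene and kind of event. Reads were scaled by the library's normalized sum of most-read skipped-exon events. Black lines mark the scaled FPKM change of the gene. The events of FOLH1, CD276 and ACPP all lie above 0, those of STEAP1 and TRPM8 below 0, and those of STEAP2 on both sides, from -0.15 to 0.25.

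Each event was also set against the other skipped-exon reads of its gene, with an edgeR model that has a term for each library, a test chosen after seeing the data. Of the 35 events 33 could be tested, and none was called by edgeR or by DESeq2. By edgeR, 0.677% of the 45205 events tested in all genes were called. Before adjustment 8 of the antigen events had an edgeR p under 0.05, all of them in FOLH1 and STEAP2. The share of all events under that unadjusted threshold was not computed, so nothing is read from the 8. The FOLH1 event with the lowest p, a skipped exon, had a log2 change of 0.11 relative to the other skipped-exon reads of FOLH1 (SE 0.029, edgeR adjusted p = 0.156). In STEAP2 the alternative 5′ splice site held 3461, 3682 and 3579 reads in the KDM4B-labelled libraries and 3075, 3756 and 3824 in the vector controls. Relative to the skipped-exon reads of STEAP2 its log2 change was 0.21 (SE 0.069, edgeR adjusted p = 0.325). Of the 3 retained-intron events of STEAP2, 2 share the span of that splice site. Relative to the same skipped-exon reads they were higher, at 0.23 (SE 0.070, edgeR adjusted p = 0.282) and 0.25 (SE 0.074, edgeR adjusted p = 0.275). The third held 16075, 15600 and 16953 reads against 19556, 19422 and 21946. On average it held 8.77 times the skipped-exon reads of STEAP2 in the KDM4B-labelled libraries and 9.52 times in the vector controls. Its log2 change relative to those reads was -0.12 (SE 0.044, edgeR adjusted p = 0.410). None of these 5 differences passed the correction.

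The counts of each antigen's family stand against 13.4% of all tested genes called higher and 60.3% lower as deposited, and 32.4% and 35.5% after scaling, and nothing particular to a family is read from them. Among 4 tested STEAP genes 1 was higher and 3 were lower as deposited, and 1 was higher and 2 lower after scaling, STEAP4 among the lower ones in both. The one that rose was STEAP3, a ferrireductase of the endosome, with 10.3 ± 0.357 FPKM in the KDM4B-labelled libraries and 5.86 ± 0.577 FPKM in the vector controls (SD, n = 3 each), a log2 fold change of 0.73 (limma adjusted p = 9.91e-07) and 0.93 after scaling. STEAP1B stayed at or below 0.10 FPKM in every library. Of 3 tested glutamate carboxypeptidase genes, FOLH1 and FOLH1B were higher and NAALADL2 lower under both scalings. FOLH1B passed the filter on low values only through its KDM4B-labelled libraries and may hold reads of FOLH1, so its call is given as a description. NAALADL2 averaged 9.43 and 12.8 FPKM, in the KDM4B-labelled libraries and the vector controls, a log2 fold change of -0.41, and -0.20 after scaling.

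ACPP was the one gene of 5 tested acid phosphatases that rose, while the other 4 were lower as deposited and 2 of these were lower after scaling. ACP2, the lysosomal acid phosphatase, averaged 13.8 FPKM in the KDM4B-labelled libraries and 23.0 FPKM in the vector controls (log2 fold change -0.70, and -0.48 after scaling). ACP6, a mitochondrial lysophosphatidic acid phosphatase, averaged 9.71 and 17.7 FPKM (log2 fold change -0.80, and -0.59 after scaling). ACP1 and PXYLP1 were called as deposited, at -0.14 and -0.30, and not after scaling, at 0.08 and -0.15.

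All 4 tested TRPM channels were lower as deposited, where 60.3% of all genes were, and TRPM8 and TRPM4 were lower after scaling, where 35.5% of all genes were. TRPM4, a calcium-activated channel for monovalent cations, had 19.1 ± 0.689 FPKM in the KDM4B-labelled libraries and 40.6 ± 0.565 FPKM in the vector controls (SD, n = 3 each), a log2 fold change of -1.05 (limma adjusted p = 1.61e-09) and -0.83 after scaling. TRPM2 and TRPM7 were at -0.27 and -0.18 as deposited, and at -0.07 and 0.03 after scaling, where neither was called. In the B7 family 2 of 4 tested genes were higher and 1 was lower as deposited, and 3 were higher and none lower after scaling. Beside CD276, ICOSLG, the ligand of the T cell costimulator ICOS, averaged 3.38 FPKM in the KDM4B-labelled libraries and 2.45 FPKM in the vector controls (log2 fold change 0.35, and 0.52 after scaling). NCR3LG1, the B7-H6 ligand of a natural killer cell receptor, was at 0.07 and not called as deposited, and was higher at 0.25 after scaling. CD274 (PD-L1) averaged 2.41 and 3.06 FPKM, was lower as deposited at -0.25 (limma adjusted p = 0.0115), and was not called after scaling at -0.08. Among 4 tested Ly6/uPAR genes, CD59, an inhibitor of complement, was higher at 0.31 and at 0.51 after scaling, and LY6E and LYPD3 were lower as deposited, at -0.22 and -0.20, and not called after scaling.

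**Figure D4:**
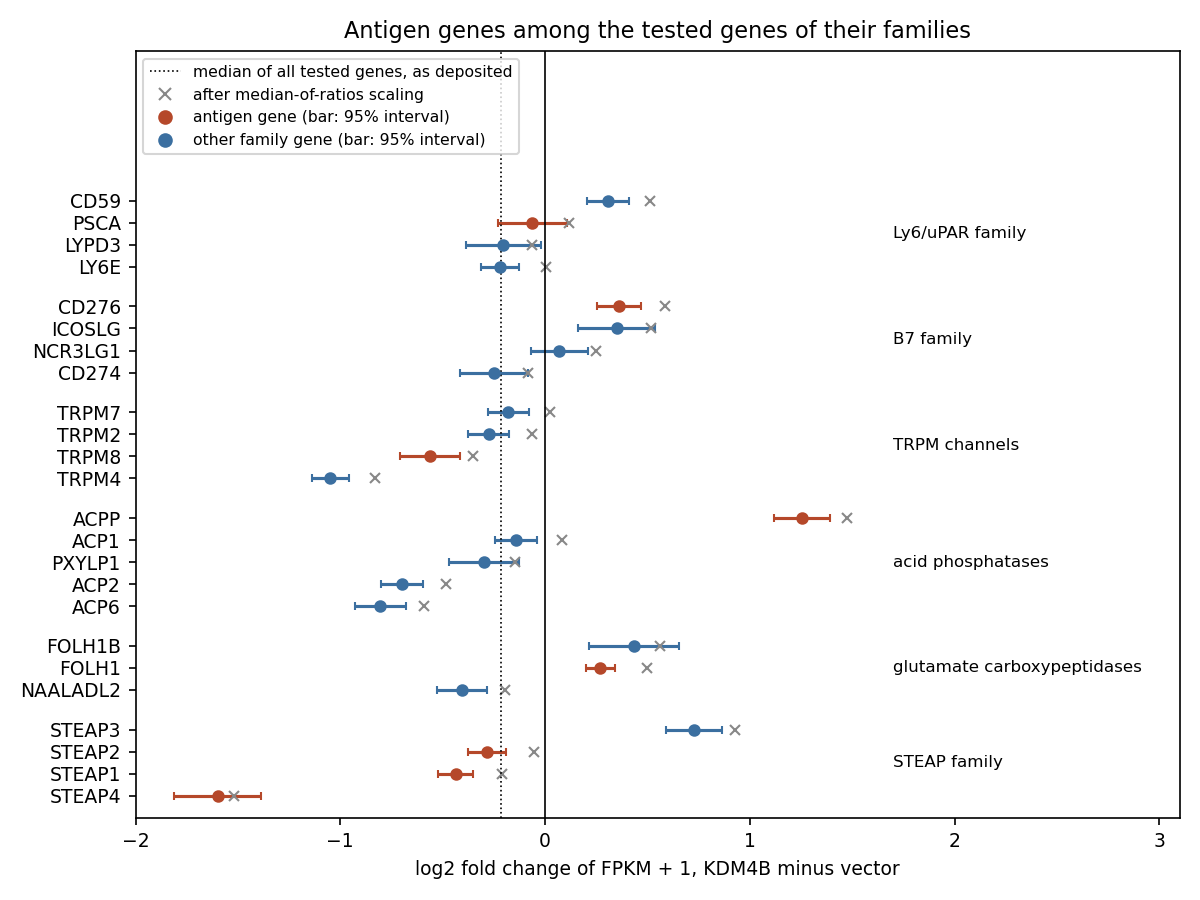
Log2 fold change of FPKM + 1 (KDM4B-labelled libraries minus vector) for the antigen genes and the other tested genes of their families, with 95% intervals as deposited and crosses after scaling. ACPP, at 1.26, lies apart from the other acid phosphatases, all at -0.14 or below, and STEAP3, at 0.73, lies opposite STEAP4, at -1.60.

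A list of 24 other tested surface antigens of prostate and other carcinomas held 4 that were higher and 19 that were lower as deposited, and 4 higher and 14 lower after scaling. The shares over all tested genes were 13.4% and 60.3% as deposited and 32.4% and 35.5% after scaling. The list's median log2 fold change was -0.40 as deposited and -0.18 after scaling, beside -0.22 and -0.01 for all genes. Their largest falls were in SLC45A3 (prostein), TMEFF2 and TMPRSS2, at -2.85, -2.61 and -2.44, where SLC45A3 averaged 22.7 and TMPRSS2 76.7 FPKM in the KDM4B-labelled libraries. The largest rises were in ALCAM, a cell adhesion molecule, GPC1, a heparan sulfate proteoglycan, and TFRC, the transferrin receptor, at 0.61, 0.61 and 0.48, all 3 of them higher after scaling too. The androgen-induced reference genes KLK3, KLK2, TMPRSS2 and FKBP5 were all 4 lower, by log2 fold changes of -2.96 to -2.09, and all 4 were lower after scaling.

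The genes whose log2(FPKM + 1) profile over the 6 libraries, each centred on its own mean, lay nearest to that of an antigen are given with their Euclidean distance, as a description of likeness only. For FOLH1 they were IDH3G at 0.030, TRPV1 at 0.041 and COX6B1 at 0.043. For STEAP1 they were NAA35 at 0.022, MTM1 at 0.027 and ZW10 at 0.029, and for STEAP2 PCBD2 at 0.032, NFATC3 and GSPT1. STEAP4 and ACPP, with the largest changes, had more distant neighbours: LIFR at 0.142, SLC25A36 at 0.173 and DNAJC10 at 0.183 for STEAP4, and DSC2 at 0.126, C1QTNF6 at 0.132 and ESPN at 0.133 for ACPP. CD276 lay nearest to CTBP1 at 0.039, ABCF1 and PNP, TRPM8 to CCDC15 at 0.113, SPSB2 and AMIGO1, and PSCA to GTPBP8 at 0.066, LPCAT1 at 0.085 and BHLHE40 at 0.096.

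The libraries carried the markers of luminal prostate cells. The 6 luminal markers KLK3, HOXB13, KRT8, KRT18, EPCAM and CDH1 were above the filter, with a summed level of 1233 to 1292 FPKM in the KDM4B-labelled libraries and 3246 to 3345 FPKM in the vector controls. Of these 6, 1 was higher and 5 were lower under both scalings. KLK3 fell from 2212 to 441 FPKM, while HOXB13, a transcription factor of the prostate lineage, rose from 165 to 214 FPKM (limma adjusted p = 2.22e-05). Markers of other cell types were low: the basal marker KRT14 reached at most 0.41 FPKM. The 2 endothelial markers summed to 0.39 to 0.45 FPKM in the KDM4B-labelled libraries and 0.85 to 1.01 FPKM in the vector controls. The 2 neuroendocrine markers summed to 0.70 to 0.76 and 0.97 to 1.18 FPKM. The 4 leukocyte markers summed to 4.34 to 5.46 and 4.51 to 5.13 FPKM, with PTPRC, which defines leukocytes, at 0.020 FPKM or below on average. The 3 fibroblast markers summed to 2.88 to 3.00 and 2.38 to 2.46 FPKM, nearly all of it from COL1A1, which was higher in the KDM4B-labelled libraries (limma adjusted p = 0.00589). None of these markers was at 0 in all 6 libraries, and their part in the antigen results was not tested.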

How the data were processed

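RNA of 6 LNCaP samples was sequenced to a mean of 6.59 Gb, per the labels. The FPKM per gene were deposited by the authors. The submitters' processing notes name HISAT, StringTie, Cufflinks and GRCh38 (hg38), without roles or versions. The splicing tables hold counts of reads per event, also as deposited by the authors (14212396 to 17021204 skipped-exon reads per library). Of the 35 antigen event positions, 10 lie inside their gene on GRCh38.p14, all of them in FOLH1. Every event position of the other antigen genes lies outside its gene, so the positions do not match that build. The build they do follow is uncertain, and none is printed.

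FPKM were compared with limma 3.58.1 (trend, pseudocount 1, mean FPKM of at least 1, two-sided, Benjamini-Hochberg threshold 0.05, all 6 libraries) in R 4.3.3. Event reads were compared with edgeR 4.0.16 (at least 10 reads in each library). DESeq2 1.42.0 served as an alternative. The main limma fit, the main edgeR fit of event reads and the main edgeR fit within each gene were tested on simulated data, and the alternatives were not. The simulation for the fit within each gene had a spread set by hand rather than taken from these data. It therefore does not show how many real changes that fit would miss. Within each group, the counts of every replicate pair differed beyond sampling noise. The antigens and gene lists were chosen with earlier results of these data known. All 8 antigens were named, with every tested gene of their families, the 3 largest changes in each direction among other surface antigens and the 3 nearest genes of each antigen. Alternatives covered pseudocount, filters, scaling, trend, replicate block and each library left out. The planned test of splice forms could not be made for these genes, and the test within each gene took its place. A few genes of the marker and reference lists, and a promoter motif, are not reported here. Gene IDs matched RefSeq for 19400 of 19571 genes.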

Additional observations from a re-analysis of the deposited data

How the results depend on the processing

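Of 162 fold changes of the antigens under the alternatives, 153 kept their direction and their side of the threshold. Scaling changed STEAP2, which was at -0.056 by median of ratios and -0.042 by upper quartile (limma adjusted p = 0.318), and the sign of PSCA, which was at 0.12 and 0.13 under these and was called under none. All-gene calls moved from 1628 higher and 7323 lower to 3934 and 4317 by median of ratios and 4095 and 4138 by upper quartile. With a replicate block, PSCA was at 0.038 (limma adjusted p = 0.693), all-gene calls were 1582 higher and 6877 lower, and no call of an antigen changed. In that fit KDM4B replicate 4 and vector replicate 3 each stand alone in a block, so the group effect rests on replicates 1 and 2. The numbers 1 and 2 are the ones both groups share, and the deviations of same-numbered libraries correlated at -0.0238 and 0.135. Differently numbered libraries ran from -0.155 to 0.104. So few correlations cannot tell whether same-numbered libraries were paired, and no label says so. With each library left out, PSCA ran from -0.13 to 0.017 (above 0 without vector replicate 3). The STEAP2 event ran from -0.22 to 0.011 and the TRPM8 event from -0.49 to -0.29. The antigens called by FPKM were 3 higher and 4 lower each time, STEAP4 among the 4. These fits kept the genes that passed the filter over all 6 libraries, which STEAP4 passed only through its vector controls. Its calls here, and its fits among the 162, are therefore a description only. With a mean FPKM of at least 5, STEAP4 and PSCA were not tested. The alternatives of the splice-form test were not run, since no antigen event had recovered forms. The depth behind single FPKM values is unknown, and the low levels of STEAP4 and PSCA limit their precision.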
